A study of Mus musculus with 12 samples.

Results

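Nuclear receptors other than the liver X receptors (LXR) were followed in mouse ventral midbrain neurospheres. The genes described are the 41 nuclear receptor genes of the deposited count table that remain after leaving out both LXR genes (Nr1h2 and Nr1h3) and the receptors Nr4a1 and Nr4a2. Each of the 41 was found on 1 row of the 23965 gene rows. Neurospheres are floating clusters of neural progenitor cells, here from E11.5 embryos of the CD-1 strain. All 4 groups shared that tissue, a 3-day expansion and a final 5 h in N2 medium. Control cultures received the solvent DMSO. The GW3965 group received a synthetic LXR agonist of that name, and another group received CT99021, also known as CHIR99021, an inhibitor of the kinase GSK3 beta. The last group received both compounds (GW3965+CT99021). Each group had 3 libraries, numbered 1 to 3 in the sample titles, and values of a group are given below in that order. The labels do not say whether the libraries came from separate cultures, and the spread that the p-values measure could be technical.

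Nuclear receptors are transcription factors, most of which are switched by small fat-soluble ligands such as retinoic acid, thyroid hormone, steroids, fatty acids or oxysterols. Many of them, LXR included, bind DNA as a pair with a retinoid X receptor (RXR), so different receptors draw on a common partner. Orphan members such as the NR4A, estrogen-related and COUP-TF receptors have no known natural ligand or act without one, and are often controlled through how much of them is made. Inhibition of GSK3 beta stabilises beta-catenin and so mimics Wnt signalling, which patterns the midbrain.

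Library totals over the gene rows ran from 9646424 to 21314093 counts, and 1 CPM, the unit of level used here (counts scaled to the library total), stood for 9.95 to 21.7 counts. All 6 neural progenitor markers and all 7 ventral midbrain markers searched were at 1 CPM or more on average, and so were all 8 markers of mesenchyme and pericytes. In the CT99021 replicate 1 library the gene Lars2 took 7.95% of gene counts, against 0.0336% to 0.142% elsewhere. A repeat row named U14 held 0 counts in 5 libraries, which were the 4 numbered 3 and GW3965+CT99021 replicate 2, and 10 to 27 counts in the other 7. The libraries numbered alike deviated together from their group means, so the replicate number was used as a block. All fold changes (log2, ± standard error) and adjusted p-values below come from edgeR's quasi-likelihood fit with that block over 15608 genes, except where stated, "rose" and "fell" mean an adjusted p under 0.05, and CPM values are levels. Without the block, the same edgeR test called 0 of 31 members in every one of the 6 contrasts (0 to 5 at an unadjusted p under 0.05), where it called 0, 0.0577%, 0.115%, 0, 0.0769% and 0 of all genes for GW3965, CT99021 and both compounds against control, both against CT99021, both against GW3965, and the interaction. DESeq2 without the block called 2 members with CT99021 against control, 2 with both compounds against control and 2 with both against GW3965. In bulk cultures, fewer cells of a type and less RNA per cell cannot be told apart.

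In these cultures 28 of the 41 receptor genes were expressed, taken as a mean of 1 CPM or more over the 12 libraries, a share of 68.3% against 61.1% of all gene rows. Of these, 26 reached 1 CPM in every library, and Rxrg and Nr2e1 did so in 10 each. Per kilobase of the transcript length listed in the table, the highest level belonged to Thra, the gene of thyroid hormone receptor alpha, at 54.1 CPM per kb. Next came the COUP-TF genes Nr2f1 and Nr2f2, orphan receptors of neural and vascular development, at 32.9 and 21.7 CPM per kb. The related Nr2f6 stood at 20.4, Rxrb at 18.1, the testicular receptor gene Nr2c2 at 17.2, Rxra at 11.3, the fatty acid receptor gene Ppard at 11.2 and the estrogen-related receptor gene Esrra at 10.6 CPM per kb. These 9 were the members above 10 CPM per kb. They were also the 9 tested members above the median tested gene, which lay at 8.6 CPM per kb, while the median tested member lay at 3.74. Rara, for retinoic acid receptor alpha, followed at 7.99, the clock repressor gene Nr1d1 at 7.76 and the glucocorticoid receptor gene Nr3c1 at 5.95 CPM per kb.

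The remaining 13 receptor genes lay under 1 CPM. Nr0b2, for the small heterodimer partner of liver, had 1 count in all 12 libraries together, and Hnf4a, a liver and gut receptor, had 3, as did the photoreceptor gene Nr2e3. The xenobiotic receptor gene Nr1i2 had 6 counts, the bile acid receptor gene Nr1h4 had 9, Nr5a1, for steroidogenic factor 1, had 16 and Esr1, for estrogen receptor alpha, had 33. Nr0b1 and Pparg had 53 each and Vdr, for the vitamin D receptor, had 73. In the control libraries Nr0b2, Nr1i2 and Hnf4a had 0 counts, which allows a level of up to 0.0551 CPM (3 counts over the group, counting error only). These 10 genes did not pass the filter on low counts and were not tested. Nr1i3 (0.963 CPM), Esr2 (0.724 CPM) and Nr5a2 (0.678 CPM) passed it, so that 31 members were tested. By group mean, 29 members reached 1 CPM in the control group, 30 with GW3965 and 28 in each group with CT99021.

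**Figure D1:**
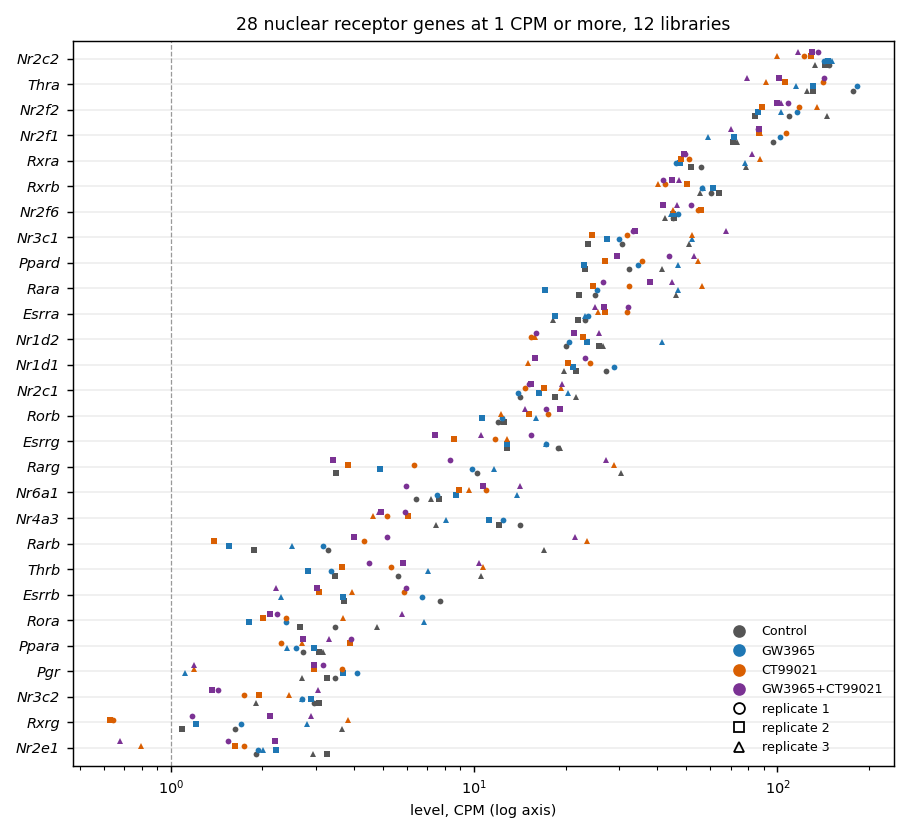
Level of the 28 expressed receptor genes, 1 row each, in the 12 libraries, on a log axis of CPM, with colour for the group and circles, squares and triangles for replicates 1, 2 and 3. The dashed line marks 1 CPM, below which lie 2 libraries each of Rxrg and Nr2e1, and the points of Rarb span 1.38 to 23.5 CPM.

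With CT99021, 6 receptor genes fell and 1 rose against control among the 31 tested. Nr4a3, Rxrb, Thra, Esrrg, Nr2c2 and Nr5a2 were lower, by 1.22-fold (Nr2c2) to 4.21-fold (Nr5a2), and Esrra was higher by 1.33-fold. The 7 calls were 22.6% of the tested members, beside 16.2% of all genes tested. Nr5a2 passed the filter on low counts through the groups where it was higher, and without it the calls were 6 of 30 (20%) and the largest fold was 2.09 (Nr4a3). Lower calls numbered 6 among the members, beside 7.76% of all genes, and the single higher call stands beside 8.41% of all genes. The median log2 fold change of the tested members was -0.18, beside 0.02 over all tested genes. A further 3 members had an unadjusted p under 0.05 without passing the adjusted test, namely Nr2e1 (-0.98 ± 0.35, adjusted p = 0.0852), Nr2f6 (0.22 ± 0.09, adjusted p = 0.122) and Ppard (0.26 ± 0.08, adjusted p = 0.0593).

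Nr4a3 encodes NOR-1, an orphan receptor of the NR4A group whose members are rapidly induced by many stimuli through cyclic AMP and calcium signals. The table lists it in mm9 at position 48064019 of chromosome 4, plus strand. Its level was 14.2, 12.1 and 7.45 CPM in the control libraries and 12.4, 11.2 and 8.04 CPM with GW3965. It was 5.14, 6.04 and 4.62 CPM with CT99021, and 5.89, 4.92 and 4.84 CPM with both compounds. All 6 libraries with CT99021 lay below all 6 without it. The fall with CT99021 against control was 2.09-fold (log2 -1.06 ± 0.17, adjusted p = 0.00347), lower in all 3 numbered pairs. With both compounds Nr4a3 was 2.12-fold lower than in control (-1.09 ± 0.17, adjusted p = 0.00242) and 2-fold lower than with GW3965 alone (-1 ± 0.17, adjusted p = 0.00343). All 3 calls held in each of 19 alternative fits with the block, with log2 values from -1.30 to -0.90, and without the block the adjusted p was 0.207, 0.144 and 0.19.

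The promoters of the members were searched for 8 short elements. Those of Nr4a3, Rxrb, Nr2c2 and Esrrg are shown because they are the windows, among those of the 6 members that fell with CT99021, with a match to the cyclic AMP or TCF/LEF elements below. The sequences are from RefSeq on GRCm38.p6, 250 bases before the listed start and, for the counts, 50 after it. Windows were given for 38 of the 41 members (58 windows), with Nr3c1, Nr5a1 and Thra not matched. The core of the cyclic AMP element, TGACG, searched on both strands and also contained in the full element TGACGTCA, occurred in 24.1% of the member windows (12 genes) and in 20.8% of all 32851 windows. The TCF/LEF element CTTTGAA or CTTTGAT, bound by the partners of beta-catenin, occurred on either strand in 5.17% of member windows (Esrrg, Nr1i2 and Nr2f2) and in 8.65% of all. Capitals mark the matches, which read CGTCA where TGACG lies on the other strand.
Nr4a3, plus strand, chr4:48045055-48045304: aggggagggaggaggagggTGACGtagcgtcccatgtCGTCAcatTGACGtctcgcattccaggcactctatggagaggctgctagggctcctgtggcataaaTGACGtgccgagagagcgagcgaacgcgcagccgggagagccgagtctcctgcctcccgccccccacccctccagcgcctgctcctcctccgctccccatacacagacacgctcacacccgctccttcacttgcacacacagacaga
Rxrb, start 1 of 2 listed, plus strand, chr17:34031562-34031811: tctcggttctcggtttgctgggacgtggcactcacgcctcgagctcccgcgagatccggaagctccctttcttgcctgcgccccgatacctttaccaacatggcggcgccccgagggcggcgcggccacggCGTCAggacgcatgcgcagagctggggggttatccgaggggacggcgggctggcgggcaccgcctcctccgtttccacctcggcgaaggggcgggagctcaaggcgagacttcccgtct
Nr2c2, plus strand, chr6:92092183-92092432: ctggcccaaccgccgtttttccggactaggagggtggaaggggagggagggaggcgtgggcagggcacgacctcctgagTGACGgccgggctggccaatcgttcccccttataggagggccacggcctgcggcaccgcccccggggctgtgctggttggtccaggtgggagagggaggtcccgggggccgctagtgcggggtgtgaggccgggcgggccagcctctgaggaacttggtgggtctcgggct
Esrrg, start 3 of 4 listed, plus strand, chr1:187651991-187652240: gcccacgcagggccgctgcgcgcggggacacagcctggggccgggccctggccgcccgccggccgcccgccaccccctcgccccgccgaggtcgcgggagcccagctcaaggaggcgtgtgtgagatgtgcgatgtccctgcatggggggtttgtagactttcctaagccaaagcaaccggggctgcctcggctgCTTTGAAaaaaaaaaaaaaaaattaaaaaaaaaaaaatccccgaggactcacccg
The Nr4a3 window held 4 matches to TGACG, which begin 231, 213, 205 and 147 bases before the start, and 0.231% of all windows held 4 or more. That share was counted with the 50 bases after the start included. The cutoff of 4 was taken from this window, itself shown because Nr4a3 fell, so the share is no test of rarity. How many member windows held 4 or more is not given. The Rxrb window held 1, at 119 bases before the start, the Nr2c2 window 1, at 171 bases, and the Esrrg window held 1 TCF/LEF match, at 55 bases before the start. The general receptor core site AGGTCA was found in 20.7% of member windows and 16.3% of all, and its extended form TNAAGGTCA in 0 member windows and 1.28% of all. GGGCGG was found in 44.8% against 35.7%, CACGTG in 10.3% against 7.15%, the full element TGACGTCA in 3.45% against 1.79%, and the serum response element in 0 against 0.0639%. Such a match is a description of letters and does not show that a factor binds.

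The RXR genes, whose products pair with LXR and with many of the other receptors, were all expressed, Rxrb and Rxra well above Rxrg (0.79 CPM per kb). Rxrb, for RXR beta (chromosome 17, listed position 34168656 in mm9), stood at 60.3, 63.9 and 55.7 CPM in control and at 56.4, 61.1 and 56.9 CPM with GW3965. It stood at 42.4, 50.3 and 40.5 CPM with CT99021 and at 41.9, 44.8 and 47.3 CPM with both compounds. Every library with CT99021 was below every library without it. The fall was 1.35-fold with CT99021 against control (-0.44 ± 0.08, adjusted p = 0.0074), 1.34-fold with both compounds against control (-0.43 ± 0.08, adjusted p = 0.00629) and 1.3-fold with both against GW3965 (-0.38 ± 0.08, adjusted p = 0.0103). The first of these was not past the test without control replicate 1 (adjusted p = 0.0523), and the last was not without GW3965+CT99021 replicate 2 or with a term for the set of 5 libraries.

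Rxra, for RXR alpha, measured 55.9, 52 and 78.5 CPM in control, 46.4, 47.8 and 77.9 with GW3965, 50.9, 48 and 87.5 with CT99021 and 49.7, 49.1 and 82.7 with both. The library numbered 3 was the highest of every group, and the groups overlapped. Its change was -0.03 ± 0.08 with CT99021 against control (adjusted p = 0.813), -0.06 ± 0.08 with both compounds against control (adjusted p = 0.599) and 0.07 ± 0.08 with both against GW3965 (adjusted p = 0.526). Rxrg, for RXR gamma, was near the expression threshold, at 1.62, 1.09 and 3.65 CPM in control, 1.7, 1.21 and 2.81 with GW3965, 0.643, 0.629 and 3.83 with CT99021 and 1.17, 2.12 and 2.89 with both. Its groups overlapped too, and its change with CT99021 against control was -0.45 ± 0.40 (adjusted p = 0.484). The difference between the changes of the 3 RXR genes was not tested.

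Thra (chromosome 11, listed position 98603086 in mm9) was the most abundant thyroid hormone receptor gene. It measured 177, 131 and 125 CPM in control, 183, 131 and 115 with GW3965, 141, 106 and 91.8 with CT99021 and 142, 101 and 79.4 with both compounds. The groups overlapped because the library numbered 1 was the highest in each, while every pair with the same number was lower with CT99021. Thra fell 1.28-fold with CT99021 against control (-0.36 ± 0.07, adjusted p = 0.00898), 1.36-fold with both against control (-0.44 ± 0.07, adjusted p = 0.00263) and 1.34-fold with both against GW3965 (-0.42 ± 0.07, adjusted p = 0.00335). All 3 calls held in the 19 alternative fits with the block, and without the block the adjusted p was 0.741, 0.581 and 0.615. In GENCODE M21 (GRCm38), 5.7% of the exon bases of Thra overlap Nr1d1 on the opposite strand, and whether the counting used strand is not given in the sources used here.

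Thrb, for thyroid hormone receptor beta, was present at a lower level, 0.916 CPM per kb beside 54.1 for Thra. Its CPM was 5.6, 3.46 and 10.5 CPM in control, 3.36, 2.82 and 7.04 with GW3965, 5.32, 3.65 and 10.7 with CT99021 and 4.51, 5.83 and 10.4 with both compounds. The library numbered 3 was the highest in each group, and the GW3965 libraries were the lowest of each number. Thrb rose 1.6-fold with both compounds against GW3965 (0.68 ± 0.20, adjusted p = 0.0379), and its change with CT99021 against control was 0.00 ± 0.20 (adjusted p = 0.993). That rise was not past the test in 12 of 19 alternative fits, among them each of those without 1 GW3965 library. The interaction of the compounds for Thrb was 0.68 ± 0.28 (unadjusted p = 0.0366, adjusted p = 0.999).

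**Figure D2:**
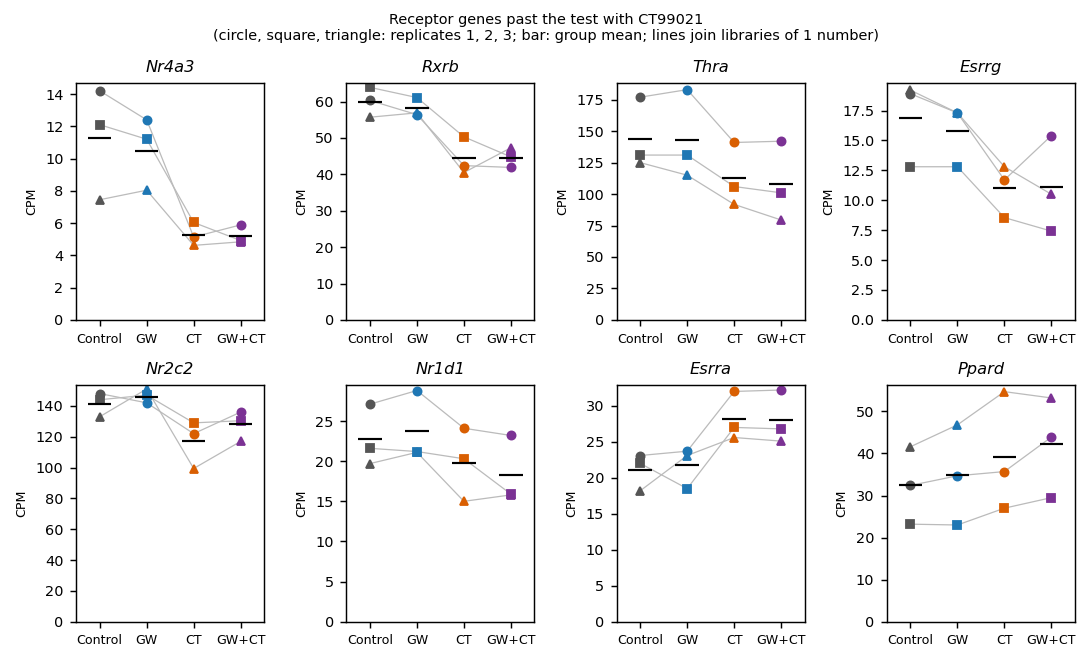
CPM of 8 receptor genes past the test in a contrast with CT99021, by group, with 1 symbol for each replicate number, a bar at the group mean and lines joining libraries of the same number. Nr4a3 and Rxrb lie lower in all 6 libraries with CT99021 than in all 6 without it, and Esrra lies higher.

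The estrogen-related receptors are orphan receptors that drive genes of mitochondrial energy use together with the PGC-1 coactivators. Of their 3 genes, Esrra rose, Esrrg fell and Esrrb passed no treatment contrast, and the differences between them were not tested. Esrra, for the alpha form (chromosome 19, listed position 6985466 in mm9), measured 23.1, 22 and 18.2 CPM in control and 23.7, 18.5 and 23.1 with GW3965. It measured 32, 27 and 25.6 CPM with CT99021 and 32.2, 26.8 and 25.1 with both compounds. All 6 libraries with CT99021 exceeded all 6 without it. Esrra rose 1.33-fold with CT99021 against control (0.41 ± 0.11, adjusted p = 0.0284), 1.32-fold with both against control (0.40 ± 0.11, adjusted p = 0.0247) and 1.29-fold with both against GW3965 (0.36 ± 0.11, adjusted p = 0.0374). The first call was lost without any 1 control library and without CT99021 replicate 1 or 2, where the highest adjusted p was 0.128. With both compounds the call against control was lost in 5 of 19 alternative fits (without control replicate 1 or 3, without GW3965+CT99021 replicate 1 or 2, and with a term for the set of 5 libraries), with a highest adjusted p of 0.108. That against GW3965 was lost in 9 (highest adjusted p 0.18). They left out any 1 library with both compounds, GW3965 replicate 1 or 2, control replicate 1 or CT99021 replicate 2, applied no filter, or added the term for the set of 5.

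Esrrg, for the gamma form, which is abundant in nervous tissue, measured 18.9, 12.8 and 19.2 CPM in control, 17.3, 12.8 and 17.3 with GW3965, 11.7, 8.55 and 12.8 with CT99021 and 15.4, 7.42 and 10.5 with both compounds. The library numbered 2 was the lowest of each group, and the groups overlapped. Esrrg fell 1.53-fold with CT99021 against control (-0.61 ± 0.14, adjusted p = 0.0184), 1.53-fold with both against control (-0.62 ± 0.14, adjusted p = 0.0142) and 1.44-fold with both against GW3965 (-0.52 ± 0.15, adjusted p = 0.0282). It was lower in all 3 numbered pairs of each of these contrasts. The first call was lost without any 1 control library and without CT99021 replicate 1 or 2 (highest adjusted p 0.0825). The call against control with both compounds was lost in 7 of 19 alternative fits (log2 -0.84 to -0.28), and that against GW3965 in 7 (-0.75 to -0.21, highest adjusted p 0.295). Among both sets were the fits without GW3965+CT99021 replicate 2 or 3, without the libraries numbered 3, with a term for the set of 5 libraries and over the 7 libraries outside that set. The last of these fits holds 1 library with both compounds. The call against control was also lost without control replicate 2 or 3, and that against GW3965 without GW3965 replicate 1 or 2. The beta form, Esrrb, had a mean of 4.33 CPM and a log2 difference of -0.18 ± 0.21 (adjusted p = 0.618) with CT99021 against control.

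Nr2c2, for testicular receptor 4, measured 148, 144 and 133 CPM in control, 142, 147 and 151 with GW3965, 122, 129 and 99.4 with CT99021 and 136, 130.4 and 117 with both compounds. The CT99021 libraries lay below all control and GW3965 libraries. The fall with CT99021 was 1.22-fold (-0.28 ± 0.08, adjusted p = 0.0407), and it was past the test in 9 of 19 alternative fits. Those in which it was not left out any 1 control library, CT99021 replicate 1 or 3, GW3965 replicate 2 or any 1 library with both compounds, or added a term for the set of 5 libraries. With both compounds it was -0.15 ± 0.08 against control (adjusted p = 0.229). In GENCODE M21, 30.7% of its exon bases overlap Mrps25 on the opposite strand, a gene with a mean of 90.0 CPM in control and 83.6 CPM with CT99021.

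Nr5a2, for liver receptor homologue 1, an orphan receptor of liver and early embryo, was tested at very low counts. It had 56 counts over the 3 control libraries, 52 with GW3965, 10 with CT99021 and 12 with both compounds. By library these were 1.25, 0.939 and 0.793 CPM in control, 1.2, 0.739 and 1.51 with GW3965, 0.459, 0.0629 and 0.264 with CT99021 and 0.106, 0.227 and 0.594 with both. Every library without CT99021 was above every library with it. Nr5a2 passed the filter on low counts through the groups where it was higher, so this separation and its folds are not independent of that filter. The fall was 4.21-fold with CT99021 against control (-2.07 ± 0.58, adjusted p = 0.0365), and with both compounds 3.65-fold against control (-1.87 ± 0.57, adjusted p = 0.0405) and 3.94-fold against GW3965 (-1.98 ± 0.57, adjusted p = 0.0324). Each was past the test in 11 of 19 alternative fits and not with DESeq2. For the first, the call was also lost without control replicate 1 or 2, without any 1 CT99021 library and without GW3965 replicate 1 or 2.

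With both compounds against control, 9 receptor genes passed the test, 29% of the tested members beside 20.4% of all genes. The 6 that fell were Nr4a3, Rxrb, Thra, Esrrg, Nr5a2 and Nr1d1, beside 9.09% of all genes lower. Of these, Nr5a2 passed the filter on low counts through the groups where it was higher. The 3 that rose were Esrra, Ppard and Nr3c1, beside 11.3% of all genes higher. The median member changed by -0.15, against 0.01 over all tested genes. A term for the set of 5 libraries reduced the 9 calls to 4, and the 7 libraries outside that set gave 6. Without GW3965+CT99021 replicate 2 the count was 4, without any 1 control library 5, and without GW3965+CT99021 replicate 1 or 3 it was 6.

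With both compounds against GW3965 alone, 10 members passed, 32.3% beside 20.7% of all genes. The 6 that fell were the same genes as against control, beside 8.92% of all genes lower, and Esrra, Ppard, Nr3c1 and Thrb rose, beside 11.8% of all genes higher. The median member changed by -0.01, the same size as the 0.01 over all genes. This contrast shares no library with CT99021 against control. Called in both were Esrra, Esrrg, Nr4a3, Nr5a2, Rxrb and Thra, which are 85.7% of the 7 and 60% of the 10, and all 6 moved in the same direction. Over all tested genes, 1920 were called in both, 76.1% of the 2523 and 59.4% of the 3232, so the members' shares lay near these. Without Nr5a2 the members' shares were 83.3% of 6 and 55.6% of 9. The count of 10 fell to 2 with a term for the set of 5 libraries or without GW3965+CT99021 replicate 2. It was 3 without GW3965 replicate 1 or 2, 5 without control replicate 1, 6 without GW3965+CT99021 replicate 1 or 3, and 6 without the filter on low counts.

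Ppard encodes PPAR delta, a fatty acid receptor that pairs with RXR. Its level was 32.4, 23.2 and 41.6 CPM in control, 34.7, 23 and 46.8 with GW3965, 35.7, 27 and 54.7 with CT99021 and 43.9, 29.5 and 53.2 with both compounds. The numbers order the libraries alike in each group, with 2 lowest and 3 highest, and the groups overlapped. Ppard rose 1.3-fold with both compounds against control (0.38 ± 0.08, adjusted p = 0.01) and 1.23-fold against GW3965 (0.29 ± 0.08, adjusted p = 0.03), higher in all 3 pairs of each. The rise against control was not past the test without control replicate 1 (adjusted p = 0.0505), and the rise against GW3965 was not past it in 8 of 19 alternative fits, among them each without 1 GW3965 library. Of the other PPAR genes, Ppara had a mean of 2.98 CPM and was past no treatment contrast, and Pparg was not tested.

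Nr3c1, the glucocorticoid receptor gene, measured 30.8, 23.7 and 51.1 CPM in control, 30.0, 27.3 and 52.3 with GW3965, 32, 24.5 and 52.2 with CT99021 and 33.5, 33.9 and 67.8 with both compounds. The library with both compounds was the highest of each number, and the groups overlapped. It rose 1.27-fold with both compounds against control (0.35 ± 0.09, adjusted p = 0.0223) and 1.22-fold against GW3965 (0.29 ± 0.09, adjusted p = 0.0477), whereas CT99021 alone gave 0.04 ± 0.09 (adjusted p = 0.798). Against CT99021 alone the value was 0.31 ± 0.09 (unadjusted p = 0.00674, adjusted p = 0.757). The call against control was lost without control replicate 2 or 3, without GW3965+CT99021 replicate 2 or 3, without the libraries numbered 3, and in both fits for the set of 5 libraries (highest adjusted p 0.42), and that against GW3965 was lost in 16 of 19 alternative fits.

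Nr1d1 encodes REV-ERB alpha, a haem-binding repressor of the circadian clock. It measured 27.1, 21.6 and 19.7 CPM in control, 28.8, 21.2 and 21.1 with GW3965, 24.1, 20.3 and 15 with CT99021 and 23.2, 15.9 and 15.8 with both compounds. Within each number the library with both compounds was below control and GW3965, and the groups overlapped. Nr1d1 fell 1.25-fold with both compounds against control (-0.33 ± 0.10, adjusted p = 0.0484) and 1.3-fold against GW3965 (-0.38 ± 0.10, adjusted p = 0.0278), and CT99021 alone gave -0.21 ± 0.10 (adjusted p = 0.191). The first was past the test in 8 of 19 alternative fits and lost without any 1 library of either group compared or GW3965 replicate 1 or 2. The second was lost without any 1 library with both compounds and without GW3965 replicate 1 or 2. Both calls were also lost with a term for the set of 5 libraries, and the first without the filter on low counts too. Its exons share 8.55% of their bases with Thra, on the opposite strand.

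**Figure D3:**
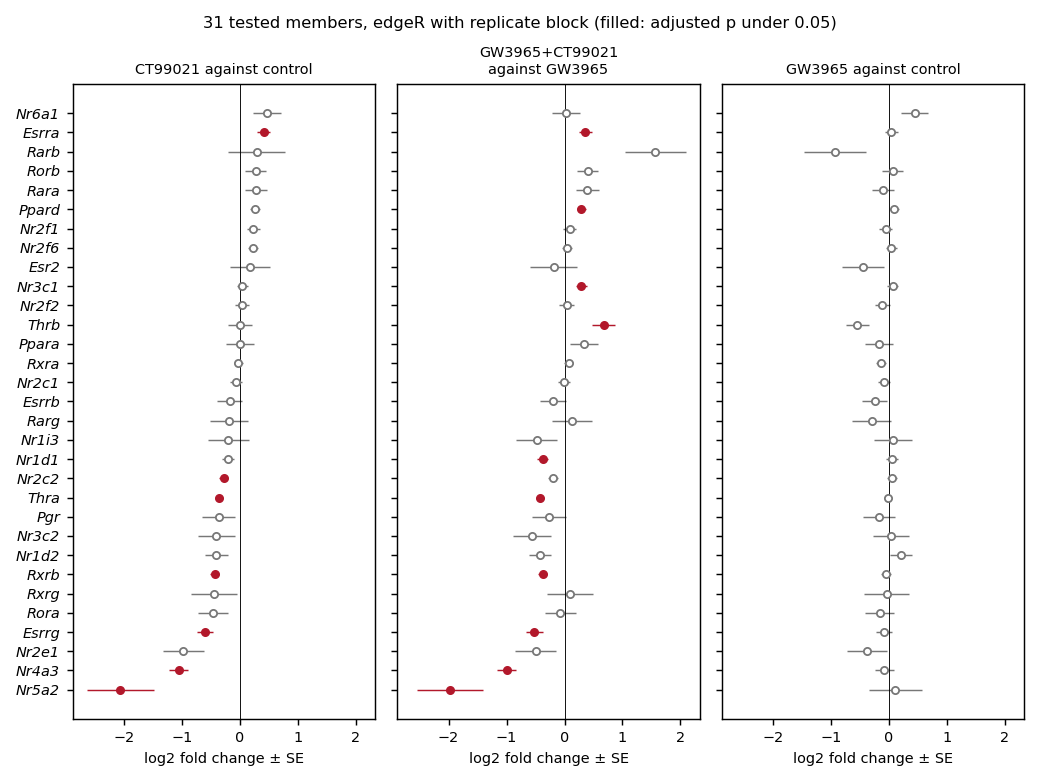
Log2 fold change and standard error of the 31 tested receptor genes with CT99021 against control, both compounds against GW3965 and GW3965 against control, from edgeR with the replicate number as a block, with filled points for adjusted p under 0.05. Nr5a2 (-2.07) and Nr4a3 (-1.06) lie farthest to the lower side with CT99021 against control, and no point is filled for GW3965 alone.

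GW3965 alone changed none of the 31 tested members past the edgeR test, where 0.0192% of all genes passed. A single member, Thrb, had an unadjusted p under 0.05 (-0.55 ± 0.20, adjusted p = 0.963), lower in all 3 pairs, and DESeq2 and limma-voom called 0 members with and without the block. The median member changed by -0.06, beside -0.00 over all tested genes. The 3 RXR genes changed by -0.14 ± 0.08 (Rxra, adjusted p = 0.963), -0.05 ± 0.08 (Rxrb, adjusted p = 0.98) and -0.04 ± 0.39 (Rxrg, adjusted p = 0.993). With both compounds against CT99021 alone, edgeR called 0 members, beside 0.0128% of all genes, and Nr3c1 was the member with an unadjusted p under 0.05. For the interaction of the compounds, edgeR called 0 members and 0 genes of all, and Thrb was the member with an unadjusted p under 0.05. DESeq2 and limma-voom called 0 members in these contrasts as well. Among targets of LXR in the same libraries, Abca1, the cholesterol exporter gene, stood at 59.8 ± 46.4 CPM in control and 235 ± 208 CPM with GW3965, and Srebf1 at 90.4 ± 14.2 and 238 ± 33.4 CPM (SD, n = 3).

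For the receptors left out of the set, Nr1h2, for LXR beta, fell with both compounds against control (-0.36 ± 0.09, adjusted p = 0.02) and against GW3965 (-0.35 ± 0.09, adjusted p = 0.0243), from a mean of 41.6 CPM in control to 32.3 CPM. Nr1h3, for LXR alpha, had a mean of 2.34 CPM and passed no treatment contrast. Nr4a1 and Nr4a2, the relatives of Nr4a3, changed by -0.26 ± 0.26 (adjusted p = 0.535) and 0.12 ± 0.17 (adjusted p = 0.676) with CT99021 against control. The difference between Nr4a3 and its relatives was not tested.

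The members also differed between replicate numbers. The edgeR test of the number was passed by 20 of 31 members, 64.5%, beside 66.1% of all genes tested, so the members' share lay near that of all genes. The largest ratios between number 3 and the others belonged to Rarb and Rarg. Rarb, for the beta form, measured 3.29, 1.88 and 17 CPM in control, 3.17, 1.55 and 2.51 with GW3965, 4.31, 1.38 and 23.5 with CT99021 and 5.15, 4.01 and 21.5 with both compounds. The libraries numbered 3 were the highest in 3 of the groups, and GW3965 replicate 3 was not. The mean of number 3 was 5.21 times that of numbers 1 and 2 (adjusted p of the number 0.00116), or 6.68 times without GW3965 replicate 3. Rarb passed no treatment contrast. Its change was 0.29 ± 0.49 with CT99021 against control (adjusted p = 0.737). With both compounds against GW3965 it was 1.57 ± 0.53 (unadjusted p = 0.0163, adjusted p = 0.0682), with log2 ratios of 0.62, 1.14 and 2.87 in the 3 numbered pairs. In GENCODE M21, 34.1% of the exon bases of Rarb overlap Top2b on the opposite strand, a gene with a mean of 413 CPM, and the part of that overlap in the counts of Rarb was not tested.

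Rarg, for the gamma form, measured 10.2, 3.51 and 30.4 CPM in control, 9.85, 4.9 and 11.6 with GW3965, 6.33, 3.84 and 28.9 with CT99021 and 8.33, 3.41 and 27.2 with both, a ratio of 3.89 between number 3 and the others (adjusted p = 1.5e-04). Rara was 44.8 to 56.4 CPM in number 3 and 17.1 to 37.9 CPM in numbers 1 and 2 (adjusted p = 9.7e-04). Higher in number 3 by ratio were also Rxrg (2.59, adjusted p = 0.00439), Thrb (2.23, adjusted p = 1.6e-04), the orphan receptor gene Rora (2.21, adjusted p = 9.9e-04), Nr3c1 (1.89, adjusted p = 4.6e-06), Rxra (1.63, adjusted p = 8.9e-06) and Ppard (1.57, adjusted p = 7.8e-06). In the other direction, Pgr, the progesterone receptor gene, had a ratio of 0.453 (adjusted p = 0.00396), Nr4a3 0.694 (adjusted p = 0.0229) and Thra 0.739 (adjusted p = 2.1e-05). For Esrrb number 1 stood apart, with means of 6.56, 3.38 and 3.05 CPM for the 3 numbers (adjusted p = 6.0e-04). These p-values are for any difference among the 3 numbers, not for the ratio. Rxrb and Nr2c2 were not past the test of the number (adjusted p = 0.173 and 0.136).

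Markers of other cell types differed with the number as well. The summed level of the 8 mesenchyme and pericyte markers was 1445, 238 and 2963 CPM in control, 1214, 251 and 2589 with GW3965, 1610, 353 and 3930 with CT99021 and 2285, 954 and 3176 with both compounds. All 8 passed the test of the number, and number 2 was the lowest and number 3 the highest in every group. With both compounds against GW3965, 4 of the 8 rose (Col3a1, Col1a2, Twist1 and Foxc1), beside 11.8% of all genes higher. Against control, 2 rose with both compounds (Twist1 and Foxc1), beside 11.3%, and 1 with CT99021 (Twist1), beside 8.41%. The part of these markers in the differences of the receptor genes was not tested. Neural progenitor markers fell in 3 of 6 cases with CT99021 against control (Sox2, Nes and Sox1), beside 7.76% of all genes lower. With both compounds 3 fell against control (Fabp7, Sox2 and Sox1), beside 9.09%. Against GW3965 4 fell (Fabp7, Sox2, Nes and Sox1), beside 8.92%. The summed level of the progenitor markers was 2693 to 4206 CPM in control and 2475 to 3528 CPM with CT99021, and their part was not tested either. Also called with CT99021 against control were the microglial gene Cx3cr1 (-1.57 ± 0.28, adjusted p = 0.00543), the endothelial gene Kdr (-0.60 ± 0.15, adjusted p = 0.0257), the dopaminergic gene Th (-1.33 ± 0.36, adjusted p = 0.032), the midbrain gene Lmx1b (-0.58 ± 0.11, adjusted p = 0.00752) and the neuronal genes Dcx (-0.41 ± 0.10, adjusted p = 0.0201) and Tubb3 (0.36 ± 0.10, adjusted p = 0.0409). With both compounds against control the endothelial gene Flt1 rose (1.21 ± 0.26, adjusted p = 0.00981) and Cx3cr1 (-1.32 ± 0.27, adjusted p = 0.00764), Lmx1b (-0.72 ± 0.11, adjusted p = 0.00216) and Dcx (-0.31 ± 0.10, adjusted p = 0.0472) fell. Kdr, of the same list as Flt1, averaged 22.9 CPM in control and 16.1 CPM with both compounds and was not called. Against GW3965 the 2 went opposite ways with both compounds: Flt1 rose and Kdr fell, beside 11.8% and 8.92% of all genes. With CT99021 against control, 1 of 3 tested microglial markers, 1 of 4 endothelial and 1 of 3 dopaminergic markers were called. So were 1 of 7 midbrain and 2 of 4 neuronal markers. With both compounds against control the counts were the same, except 0 for the dopaminergic markers, and the neuronal calls were Dcx and Stmn2. Th had a mean of 0.86 CPM over the 12 libraries, under the 1 CPM threshold for expression. By group it stood at 1.23 CPM in control, 1.13 with GW3965, 0.481 with CT99021 and 0.6 with both compounds. Its higher levels without CT99021 helped it past the filter on low counts, so its fold is not independent of that filter. Whether whole cell types changed was not tested. The part of these marker genes in the receptor values was not tested. Sums were 10.7 to 45.9 CPM for dopaminergic neuron markers, 6.37 to 20.3 for microglia, 32.1 to 66.9 for endothelium, 26.2 to 179 for the oligodendrocyte lineage, 157 to 836 for erythroid cells and 1016 to 1958 for neurons over all libraries.

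**Figure D4:**
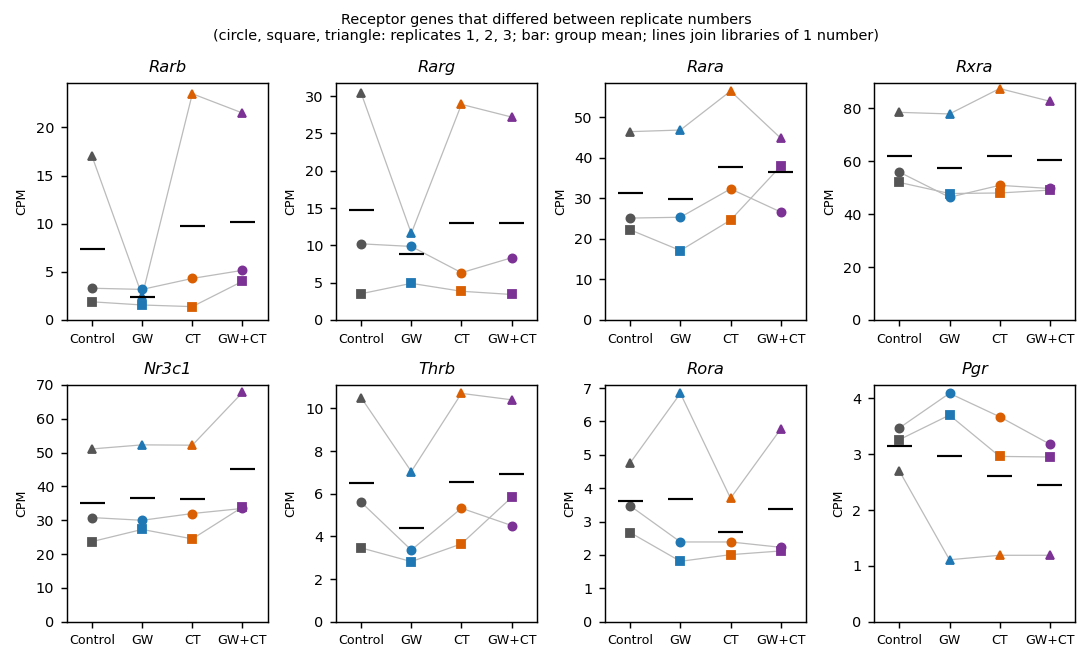
CPM of 8 receptor genes that differed between replicate numbers, by group, with circles, squares and triangles for libraries 1, 2 and 3, a bar at each group mean and lines joining libraries of 1 number. Triangles are the highest in every group for Rara, Rarg, Rxra, Nr3c1, Thrb and Rora, and the lowest for Pgr, while for Rarb the triangle of GW3965 lies at 2.51 CPM, between the other two.

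Genes that act with these receptors were read from 6 lists, of which 5 are described. Beside their counts with CT99021 against control stand 8.41% of all genes higher and 7.76% lower, beside those with both compounds against control 11.3% and 9.09%, and beside those with both against GW3965 11.8% and 8.92%. Of the 21 coregulators, all of them tested, 3 rose and 5 fell with CT99021 against control, with a median of 0.00 beside 0.02 over all genes, and with both compounds 3 rose and 2 fell against control and likewise against GW3965. Ppargc1a, the coactivator PGC-1 alpha that works with PPAR and estrogen-related receptors, went from a mean of 23.9 ± 10.5 CPM to 11.8 ± 1.22 CPM (SD, n = 3) with CT99021, a log2 change of -0.96 ± 0.18 (adjusted p = 0.00783). Its relative Pprc1 rose, from 72.5 ± 22 to 121 ± 34.5 CPM (0.73 ± 0.14, adjusted p = 0.00914). The arginine methyltransferase gene Carm1 rose by 0.28 ± 0.06 (adjusted p = 0.0099), and Tbl1xr1, a subunit of the corepressor complex, changed by -0.40 ± 0.09 (adjusted p = 0.0143), a fall.

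Of 18 genes of retinoic acid synthesis, binding, breakdown and response, 14 were tested, 1 rose and 1 fell with CT99021 against control, and the median was 0.20. Stra6, the retinol uptake receptor gene, rose 3.3-fold from 1.5 ± 0.739 to 4.95 ± 2.44 CPM (adjusted p = 0.0149), and Cyp26b1, which breaks down retinoic acid, fell 1.75-fold from 71.7 ± 50.8 to 35.8 ± 21 CPM (adjusted p = 0.0206). Both were also called with both compounds, against control and against GW3965, and Tgm2 rose against GW3965. Of 16 PPAR target genes, 15 were tested, 0 rose and 3 fell with CT99021 against control (median -0.00). Among these were Acadm (-0.45 ± 0.09, adjusted p = 0.00912) and Cpt1a (-0.53 ± 0.13, adjusted p = 0.019), genes of fatty acid oxidation. With both compounds Acadm fell against control as well, while against GW3965 the called member was Angptl4, which rose.

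Among 12 tested genes of glucocorticoid response and receptor chaperones, 1 rose and 1 fell with CT99021 against control (median 0.08). The chaperone gene Hsp90ab1 rose by 0.23 ± 0.06 (adjusted p = 0.0282), and the phosphatase gene Dusp1 fell 1.48-fold (-0.57 ± 0.15, adjusted p = 0.0278). With both compounds 3 rose and 1 fell against control, and 4 rose and 1 fell against GW3965, the latter with Fkbp5, a target of the glucocorticoid receptor, among those that rose (0.33 ± 0.08, adjusted p = 0.0133). Of 14 tested clock genes, edgeR called 0 with CT99021 against control, with Bhlhe40 at -0.06 ± 0.28 and Clock at -0.12 ± 0.10, and Tef and Bhlhe41 rose with both compounds against control. GW3965 alone changed 0 genes of the 6 lists past the edgeR test.

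As a description of likeness, the deviations from group and number means of each of the 7 members called with CT99021 against control were correlated with those of the other tested members over the 12 libraries, which share depth and composition. The values given are the highest, picked from all the other members, and were not tested. Those most like Nr4a3 were Nr3c2 (r = 0.86), Esr2 (0.67, at 5 to 20 counts per library) and Rxrb (0.61). For Rxrb they were Esr2 (0.67), Nr3c2 (0.67) and Rora (0.63), and for Thra they were Nr2f2 (0.72), Nr2e1 (0.70) and Esrrg (0.57). Nr2c2 was closest to Nr1d2 (0.87), Nr1d1 (0.77) and Rorb (0.70), and Esrra to Rorb (0.71), Rora (0.67) and Nr1d2 (0.64). Esrrg was closest to Ppara (0.67), Thra (0.57) and Ppard (0.51), and Nr5a2, at few counts, to Nr6a1 (0.91).

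For the remaining tested members the range over the 12 libraries is given. Nr2f1 ranged from 59.1 to 107 CPM, Nr2f2 from 84.2 to 146, Nr2f6 from 41.8 to 56.1, Nr2c1 from 13.9 to 21.6 and Nr1d2 from 15.4 to 41.6, the last with its highest value in GW3965 replicate 3. Nr6a1, for germ cell nuclear factor, ranged from 5.94 to 14.2 CPM, Rorb from 10.6 to 19.2, Rora from 1.81 to 6.84, Nr3c2, the mineralocorticoid receptor gene, from 1.36 to 3.07, and Nr2e1, for the progenitor factor TLX, from 0.679 to 3.26. None of these 10 passed a treatment contrast in the edgeR fit with or without the block. Exons of Nr2f6 share 54.4% of their bases with Ocel1, and those of Nr1i3 share 74.9% with Tomm40l, on the opposite strand. Mean levels were 2.24 CPM for Ocel1 beside 47.2 for Nr2f6, and 24.2 CPM for Tomm40l beside 0.963 for Nr1i3. Their counts are uncertain to an extent that was not tested.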

How the data were processed

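RNA of 12 libraries (4 groups of 3) was sequenced. The deposited table holds raw counts of reads for each gene, which the authors did not normalise. The submitters' processing notes name Bowtie and mm9. What each was used for, how reads were assigned to genes, and whether strand or multiple mapping was considered is not given in the sources used here. The 1217 rows of repeat families stayed out of library sizes and tests. The members, gene lists and naming rule were chosen with earlier results of these data known. A member was expressed at a mean of 1 CPM or more, computed from the deposited counts with TMM factors, and CPM per kb used the transcript length of the table. Library values were named for members past the test at 1 CPM or more, for the RXR genes, and, chosen after their values were seen, for Nr5a2, Rarb and Rarg. Where libraries are said not to overlap, this describes the same values that the test used and is no further evidence. The share of all genes that separate alike is not given. Of each list, 2 to 4 called genes with the lowest adjusted p were named, or the 2 most abundant, and others of a list were chosen after their values were seen.

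The fixed design used edgeR 4.0.16 and its quasi-likelihood F test (R 4.3.3, robust fit, filterByExpr, 15608 genes) with a mean per group and no block, Benjamini-Hochberg adjusted p under 0.05 over all genes. Deviations from group means, over genes, correlated in all 18 same-numbered pairs (r = 0.496 to 0.828; different numbers -0.677 to 0.241), so the numbers were taken as a pairing that the data show and the labels do not state, and the fit with the replicate block is reported. It lowered the biological coefficient of variation from 33.4% to 12.7%. No libraries agreed within sampling noise (chi-square per gene 23.9 to 109). The table's header gives 9 index names, 3 of them for 1 control and 1 GW3965+CT99021 library each. Each fit was tested on counts simulated for CT99021 against control, with replicate effects, over 15608 genes of which 200 were altered. Calls numbered 101 without the block (false: 0) and 183 with it (false: 10). The share of altered genes found was 29% without the block and 81% with it at a log2 change of 1, and 72% and 92% at a log2 change of 2. The simulated replicate effect was the same in every group, which favours the fit with the block. The simulation therefore cannot show that the block suits these libraries. Alternatives were RLE factors, no filter, DESeq2 1.42.0, limma-voom 3.58.1, leaving out each library or the 4 numbered 3 and, added after seeing the data, 2 fits for the set of 5 libraries. Calls of genes in the lists were not recomputed under these, and some results of the lists are not reported here. Promoters are RefSeq windows on GRCm38.p6 and exon overlaps are from GENCODE M21.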

Additional observations from a re-analysis of the deposited data

How the results depend on the processing

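Without the block the members called were 0 in each contrast. Adding the replicate block gave 7 with CT99021 against control, 9 with both compounds against control and 10 with both against GW3965, and DESeq2 without the block gave 2 in each of these. In the paired fit, a term for the set of 5 libraries gave 4 calls with both compounds against control and 2 against GW3965, where testing without the filter on low counts gave 6. Leaving out each library in turn gave 2 to 7 calls with CT99021 against control, 4 to 10 with both against control and 2 to 11 with both against GW3965. The lowest counts came without control replicate 1 for the first and without GW3965+CT99021 replicate 2 for the others. The replicate number was passed by 17 to 20 members when 1 library was left out and by 11 without the libraries numbered 3. The cause of these changes was not tested, except that fewer libraries entered where some were left out. GW3965 against control, both compounds against CT99021 and the interaction gave 0 in every alternative run. No called member changed direction in any alternative with the block. The calls of Nr4a3 and Thra in the 3 contrasts with CT99021, and that of Rxrb with both compounds against control, held in all 19. The depth, 9.95 to 21.7 counts per CPM, left 10 members under the filter on low counts, and changes in them were not tested.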
